A study of Gallus gallus with 15 samples.

Results

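The Z-disc is the plate that joins neighbouring sarcomeres, and 10 chicken genes of the Z-disc and of the sarcomere's answer to stretch were followed here in breast muscle at 3 ages. The genes were ANKRD1, ANKRD2, CSRP3, XIRP1, XIRP2, FLNC, LDB3, SMYD1, MYO18B and SYNC, and they were picked by name. Of these, 8 were found among the 23599 gene names of the expression table, where they held 28 of its 48836 entries, and entries that share a name were summed. XIRP2 and FLNC were not found under these names and are not analysed here. ANKRD2, SMYD1, MYO18B and SYNC had been chosen because they differed strongly between ages in these same birds, so their values are a description and carry no test. ANKRD1, CSRP3, XIRP1 and LDB3 were tested.

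The birds were hens of the Jingyuan breed, which had been raised together with free access to feed and water, and the labels name no transgene or treatment. There were 5 birds of 42 days, 5 of 126 days and 5 of 180 days, from age groups whose labelled body weights were 0.422 ± 0.03, 1.68 ± 0.14 and 2.03 ± 0.09 kg in that order. Polyadenylated RNA of whole breast muscle was sequenced, and the level of a gene is its FPKM, the number of fragments per kilobase of transcript and per 1000000 mapped fragments, so that levels of different genes can be set side by side per length. Every bird was sampled at 1 age only, and the sample labels also name a myoblast line and primary cells although the source is breast tissue.

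At the Z-disc, thin filaments of opposite polarity are anchored by alpha-actinin, and titin runs from there towards the middle of the sarcomere. Proteins such as LDB3 and CSRP3 bind this lattice, filamin C and the Xin proteins gather where it is damaged or under load, and desmin and syncoilin tie neighbouring Z-discs to each other and to the membrane. In mammals, ANKRD1, ANKRD2 and CSRP3 are known as genes whose transcripts rise when muscle is stretched, loaded or injured, and ANKRD2 and CSRP3 are richer in slow than in fast muscle.

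The FPKM of a bird summed to between 413638 and 481698 and held no read counts, so the depth behind each value is unknown. Transcripts of fast fibres were abundant at every age, with mean levels of at least 8487 FPKM for TNNT3 (fast troponin T) and 10907 FPKM for MYL1 (fast myosin light chain), although PVALB, the calcium buffer of fast fibres in mammals, had a mean of no more than 1.26 FPKM at any age. ACTA1, MYLPF, CKM and ATP2A1 were not found under these names. Of 9 slow-fibre genes found, MYL2 was at 0 in all 15 birds, MYH7 did not pass 0.06 FPKM and MYL3 did not pass 0.69 FPKM, while TNNC1 (1331 to 3790 FPKM) and CASQ2 (424 to 1212 FPKM) made up most of the summed level of this list. Whether TNNC1 and CASQ2 mark slow fibres in chicken breast muscle was not tested, so that sum is not read as a slow-fibre level. TNNI1 had means of 2.15, 0.242 and 0.224 FPKM at 42, 126 and 180 days, and MYOZ2 had 9.39, 1.24 and 2.01 FPKM. MYH7B did not pass 0.90 FPKM, and ATP2A2 ran from 2.70 to 10.7 FPKM. In limma 0 of the slow-fibre genes tested were called in any comparison. Bird 5 at 42 days had the lowest summed level of the 5 fast-fibre genes found, 13055 FPKM against 19934 to 33078 FPKM in the other birds. Bird 1 at 180 days had a summed T cell level of 76.1 FPKM against at most 7.14 FPKM in the others of its age, and bird 1 at 126 days had 19.9 FPKM against at most 10.2 FPKM. In whole tissue, fewer cells of a type and less RNA per cell cannot be told apart.

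By mean FPKM, ANKRD1 was the most abundant of the 8 genes at every age, and LDB3 came next. The mean log2 level at 42 days was higher for LDB3 (8.94) than for ANKRD1 (8.56). By mean level ANKRD1 stood 42nd among all gene names at 42 days, 29th at 126 days and 38th at 180 days. Its range overlapped that of LDB3 at each age, since LDB3 was higher in 2 of the 5 birds at 42 days and in 1 bird at 180 days. XIRP1, SMYD1 and MYO18B followed with means between 39.0 and 343 FPKM, and ANKRD2, CSRP3 and SYNC were low, with means between 0.69 and 15.02 FPKM. MYO18B stood apart from the low genes at every age, because its lowest bird lay above the highest bird of the next gene. XIRP1 and SMYD1 overlapped each other at all 3 ages, and the order of ANKRD2, CSRP3 and SYNC was not the same at the 3 ages: SYNC led these at 42 and 126 days and came last at 180 days, although neighbours among these low genes overlapped at each age. LDB3 overlapped the next gene below it at 42 and 126 days and not at 180 days.

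**Figure D1:**
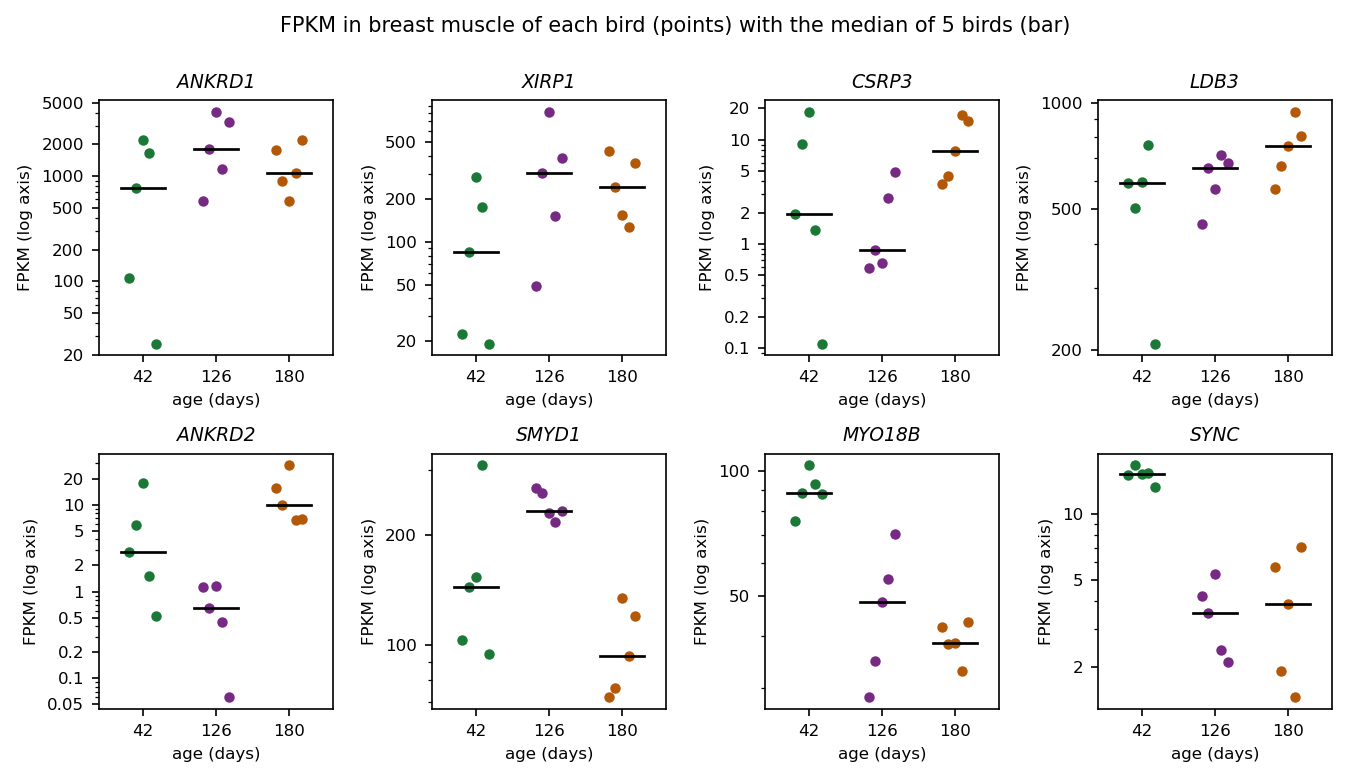
FPKM (log axis, each panel with its own range) of the 8 genes in each bird (points, replicates 1 to 5 from left to right) by age in days, with bars at the median of 5 birds. The ages of ANKRD1, XIRP1, CSRP3 and LDB3 overlap, SYNC and MYO18B lie higher at 42 days than at both later ages, and the 5 birds of ANKRD2 at 180 days, at 6.64 FPKM or more, lie above the 5 birds at 126 days, at 1.17 FPKM or less.

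ANKRD1 encodes the cardiac ankyrin repeat protein, which binds titin and moves to the nucleus in strained mammalian muscle. It stood at 107, 773, 2183, 1677 and 25.4 FPKM in birds 1 to 5 at 42 days. At 126 days the birds had 576, 1800, 4101, 1170 and 3253 FPKM, and at 180 days 1759, 903, 581, 1063 and 2201 FPKM. Birds of one age differed by up to 85.9-fold at 42 days, 7.12-fold at 126 days and 3.79-fold at 180 days, and the 3 ages overlapped. The mean log2 level was higher by 2.21 (SE 1.08) at 126 than at 42 days and by 1.63 (SE 1.04) at 180 than at 42 days, and it was lower at 180 than at 126 days by 0.58 (SE 0.52; log2 difference -0.58). None of these differences passed limma's test, with adjusted p of 0.280, 0.468 and 0.665. Without bird 5 at 42 days, whose fast-fibre genes were also low, the first pair of log2 differences was 1.23 and 0.65. The last difference ran from -0.98 (without bird 1 at 126 days) to -0.27 (without bird 3 at 126 days) when 1 bird was left out.

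XIRP1 encodes Xin, a protein with repeats that bind actin, first described in the chick heart. Its levels were 22.4, 84.7, 287, 176 and 19.2 FPKM in birds 1 to 5 at 42 days. They were 48.8, 306, 820, 152 and 388 FPKM at 126 days, and 434, 244, 154, 128 and 357 FPKM at 180 days. The lowest birds were again 1 and 5 at 42 days and 1 at 126 days, and the ages overlapped. The log2 difference was 1.72 (SE 0.84) for 126 against 42 days, 1.73 (SE 0.70) for 180 against 42 days and 0.01 (SE 0.64) for 180 against 126 days, with limma adjusted p of 0.280, 0.216 and 0.998. The difference of 180 from 42 days had an unadjusted p of 0.0286 in limma. Without bird 5 at 42 days the differences from 42 days were 1.25 at 126 days and 1.26 at 180 days.

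CSRP3, the muscle LIM protein, binds alpha-actinin and telethonin, the titin cap. In birds 1 to 5 it had 1.96, 9.11, 18.6, 1.37 and 0.11 FPKM at 42 days. The values were 0.59, 0.87, 0.66, 2.77 and 4.92 FPKM at 126 days, and 3.75, 4.50, 7.87, 17.4 and 15.1 FPKM at 180 days. Birds 1 to 4 at 126 days lay below every bird at 180 days, and bird 5 at 126 days lay among them. CSRP3 was higher at 180 than at 126 days by 2.47 on the log2 scale (SE 0.61), with an unadjusted p of 0.0017 and a limma adjusted p of 0.0710, so that it missed the threshold of 0.05 over all genes. The paper lists CSRP3 among its differing genes for 126 and 180 days, tested on counts with DESeq2. In limma on FPKM, CSRP3 passed when bird 5 at 126 days (adjusted p 0.0408) or bird 1 at 180 days (adjusted p 0.0358) was left out. Over all alternatives the adjusted p in limma ran from 0.00894 to 0.217. Against 42 days the log2 difference was -0.78 (SE 1.03) at 126 days and 1.69 (SE 0.99) at 180 days, with limma adjusted p of 0.713 and 0.417. The first of these was -0.06 without bird 3 at 42 days and -1.68 without bird 5 at 42 days, and the second was 0.78 without bird 5 at 42 days.

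LDB3 joins alpha-actinin to signalling proteins through its PDZ and LIM domains, and its loss breaks Z-discs under load in mice. Its levels varied least among the 4 tested genes, with 593, 505, 600, 763 and 209 FPKM at 42 days. The birds had 453, 656, 571, 713 and 678 FPKM at 126 days, and 570, 665, 757, 945 and 807 FPKM at 180 days. Bird 5 at 42 days was the lowest of all 15, and the ages overlapped. The log2 difference was 0.30 (SE 0.31) for 126 against 42 days, 0.59 (SE 0.31) for 180 against 42 days and 0.28 (SE 0.18) for 180 against 126 days, with limma adjusted p of 0.619, 0.354 and 0.490. When bird 5 at 42 days was left out, the differences from 42 days were -0.0050 and 0.28, and without bird 1 at 126 days the last was 0.18.

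The other 4 genes had been chosen for their change. ANKRD2, the ankyrin repeat relative of ANKRD1 that binds titin, had 2.86, 5.83, 18.1, 1.52 and 0.52 FPKM in birds 1 to 5 at 42 days. It had 1.13, 0.65, 1.17, 0.44 and 0.06 FPKM at 126 days and 15.6, 10.1, 28.5, 6.64 and 6.84 FPKM at 180 days. All 5 birds at 180 days lay above all 5 at 126 days, while the birds at 42 days overlapped both. The mean level at 180 days was 19.6 times that at 126 days, and the log2 difference was 4.20 (SE 0.58). It was 2.95 with a pseudocount of 1, which weighs on low values such as those at 126 days. Against 42 days the log2 difference was -2.33 (SE 0.82) at 126 days and 1.88 (SE 0.75) at 180 days. Without bird 5 at 42 days these differences were -2.91 and 1.29.

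SMYD1 encodes a lysine methyltransferase of striated muscle that binds myosin and is needed to build sarcomeres in zebrafish and mice. Its levels were 103, 144, 154, 310 and 94.3 FPKM at 42 days. They were 269, 261, 229, 217 and 232 FPKM at 126 days and 71.8, 76.4, 134, 93.0 and 120 FPKM at 180 days. Every bird at 180 days lay below every bird at 126 days, and the birds at 126 days lay close together, between 217 and 269 FPKM. Bird 4 at 42 days had the highest level of all. The log2 difference was 0.72 (SE 0.28) for 126 against 42 days, -0.60 (SE 0.31) for 180 against 42 days and -1.33 (SE 0.18) for 180 against 126 days. Without bird 4 at 42 days the second of these was -0.33. Among the 8 genes, SMYD1 and ANKRD2 were thus the pair without overlap between 126 and 180 days, in opposite directions.

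MYO18B, an unconventional myosin needed for sarcomere assembly in mice and zebrafish, was highest at 42 days, with 75.8, 88.7, 103, 93.3 and 87.9 FPKM. It had 28.5, 35.0, 48.5, 55.1 and 70.4 FPKM at 126 days and 42.1, 38.3, 38.6, 32.9 and 43.4 FPKM at 180 days. All birds at both later ages lay below all birds at 42 days, and the later ages overlapped. The log2 difference from 42 days was -0.98 (SE 0.23) at 126 days and -1.20 (SE 0.14) at 180 days, and that of 180 from 126 days was -0.22 (SE 0.22), or -0.055 without bird 5 at 126 days.

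SYNC encodes syncoilin, an intermediate filament protein that in mice binds desmin and the dystrophin complex. It had 14.99, 16.5, 15.1, 15.2 and 13.3 FPKM at 42 days. Its levels were 4.24, 3.55, 5.33, 2.39 and 2.12 FPKM at 126 days and 5.69, 1.93, 3.88, 1.46 and 7.05 FPKM at 180 days. The 5 birds at 42 days were within 1.25-fold of each other, and all lay above every later bird. The mean level at 42 days was 4.26 times that at 126 days and 3.75 times that at 180 days, with log2 differences of -2.14 (SE 0.24) and -2.11 (SE 0.37) for the later ages, and 0.03 (SE 0.43) between 180 and 126 days. Bird 5 at 42 days was the lowest of its age in ANKRD1, ANKRD2, CSRP3, XIRP1, LDB3, SMYD1 and SYNC (13.3 FPKM). Its MYO18B level, 87.9 FPKM, was not the lowest of that age.

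**Figure D2:**
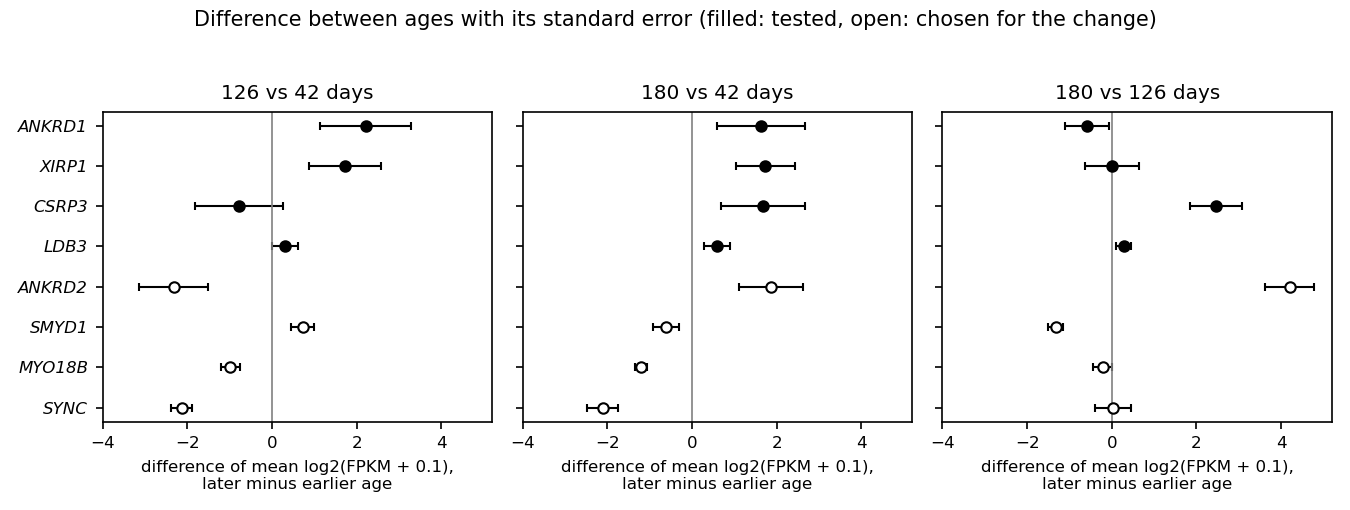
Difference of the mean log2(FPKM + 0.1), later minus earlier age, with its standard error (bars), for 126 against 42, 180 against 42 and 180 against 126 days, each over 10 birds. Filled points are the 4 tested genes and open points the 4 chosen for their change, of which ANKRD2 lies at -2.33, 1.88 and 4.20.

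Set beside all genes, these counts read as follows. A gene was called when its limma adjusted p was under 0.05 and its log2 difference at least 1 in size. At 126 against 42 days, 283 of 11482 genes were called (2.46%), 63 higher (0.549%) and 220 lower (1.92%), and 6.44% did not overlap between the ages, 1.37% higher and 5.08% lower. At 180 against 42 days, 342 of 11692 genes were called (2.93%), 54 higher (0.462%) and 288 lower (2.46%), and 5.66% did not overlap, 1.21% higher and 4.46% lower. At 180 against 126 days, 106 of 11515 genes were called (0.921%), 54 higher (0.469%) and 52 lower (0.452%), and 4.31% did not overlap, 2.54% higher and 1.76% lower. Of the 4 tested genes, 0 were called in each comparison by limma, and 0, 1 and 1 had an unadjusted p under 0.05. Over all genes, 2255 of 11482, 2062 of 11692 and 1818 of 11515 had an unadjusted limma p under 0.05. Nothing is therefore read from the 0, 1 and 1. In each comparison 0 of the 4 tested genes and 2 of all 8 had no overlap between the ages, and since these were genes chosen for their change, nothing is read from that share. The median log2 difference of the 4 tested genes was 1.01, 1.66 and 0.15, against -0.15, -0.13 and 0.01 over all genes tested. Bird 5 at 42 days was the lowest of its age in all 4. Without it, ANKRD1, XIRP1, CSRP3 and LDB3 differed from 42 days by 1.23, 1.25, -1.68 and -0.0050 at 126 days. For 180 days these differences were 0.65, 1.26, 0.78 and 0.28. After quantile normalization the medians over all genes were -0.0097, 0.0024 and 0.01, and the calls split into 116 higher and 152 lower at 126 against 42 days, 54 and 176 at 180 against 42 days, and 28 and 56 at 180 against 126 days.

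ANKRD1, CSRP3, XIRP1 and ANKRD2 varied strongly between birds of the same age, and LDB3, SMYD1, MYO18B and SYNC varied less. The SD within ages of the log2 level was 1.78 for ANKRD1, 1.73 for CSRP3, 1.41 for XIRP1 and 1.38 for ANKRD2, at or above the 96.8th percentile of 11601 genes, whose median SD was 0.453. It was 0.634 for SYNC, 0.472 for LDB3, 0.458 for SMYD1 and 0.326 for MYO18B, between the 26.2nd and the 71.2nd percentile. For ANKRD1, CSRP3, XIRP1 and ANKRD2 the SD was largest at 42 days (2.76, 2.52, 1.74 and 1.85). At 180 days it was 0.77, 0.99, 0.76 and 0.88. The percentiles take no account of level, and the lowest birds of ANKRD2 and CSRP3 had 0.06 and 0.11 FPKM.

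ANKRD1 and XIRP1 went up and down together from bird to bird. At 42 days both were highest in bird 3, followed by birds 4, 2, 1 and 5. At 126 days both ran from bird 3 over 5, 2 and 4 to bird 1. At 180 days birds 5 and 1 were the highest in both, but the orders differed. They were 5, 1, 4, 2 and 3 for ANKRD1 and 1, 5, 2, 3 and 4 for XIRP1. Pearson's r of the log2 levels was 0.962 at 42 days, 0.979 at 126 days and 0.769 at 180 days. After each age's mean was subtracted, the log2 levels had a Pearson's r of 0.901 over the 15 birds (permutation p = 2e-05, adjusted p = 0.00056 over 28 pairs of the 8 genes) and a Spearman's rho of 0.911 (permutation p = 9e-05, adjusted p = 0.00252). With birds 3 and 5 at 42 days left out r was 0.919. It was 0.821 when only the highest entry of each name was used, and between 0.875 and 0.932 when 1 bird was left out. The other 27 pairs had an adjusted permutation p of at least 0.263. Markers of regenerating or denervated fibres summed to 584 FPKM in bird 3 at 126 days, against 88.3 to 231 FPKM in its age. At 42 days their highest sum was in bird 5 (247 FPKM), the lowest in both genes. Bird 1 at 126 days, lowest in both, had the highest erythrocyte, fibroblast and endothelium sums of its age (271, 1272 and 177 FPKM). So did bird 1 at 180 days (157, 219 and 123 FPKM), among the highest in both. Whether these sums bear on ANKRD1 and XIRP1 was not tested.

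**Figure D3:**
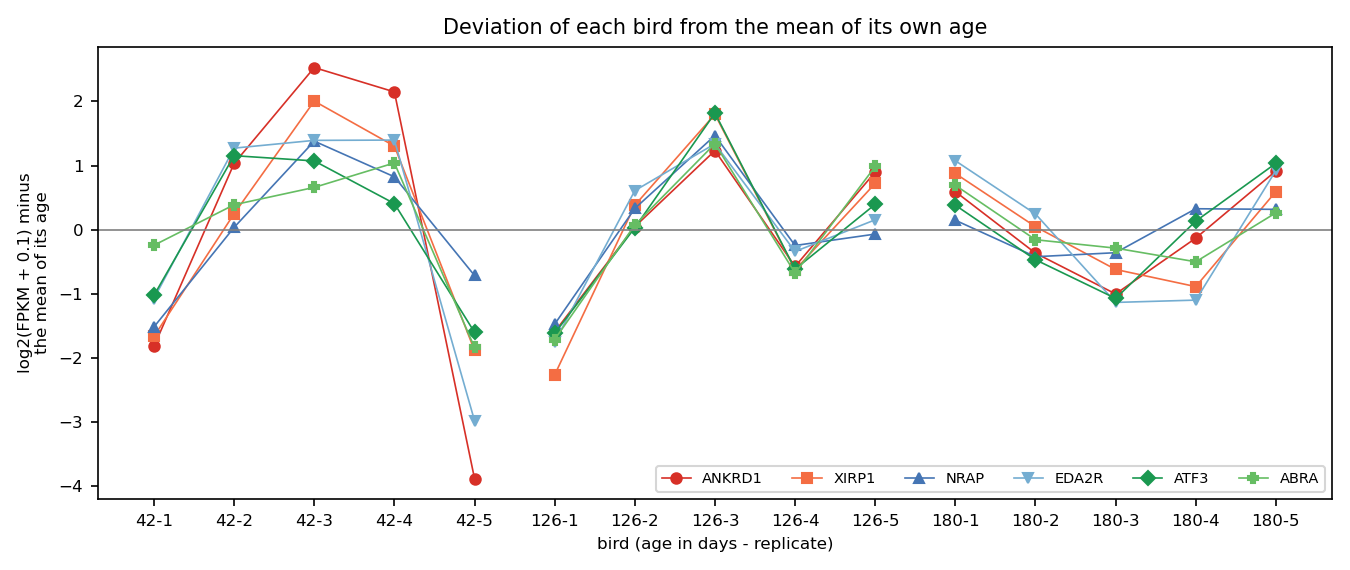
Deviation of the log2(FPKM + 0.1) of each bird from the mean of its own age, for ANKRD1, XIRP1, the genes nearest to them in pattern, NRAP and EDA2R, and ATF3 and ABRA. Lines join birds of one age for reading only, since birds have no order, and the values of ANKRD1 run from -3.89 in bird 5 to 2.53 in bird 3 at 42 days.

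The gene names whose pattern over the 15 birds lay nearest to each gene were found among 9550 names by the root mean square difference of their centred log2 levels. Levels were centred on each gene's mean over all 15 birds and not within ages, so differences between ages count in this measure. A near name can therefore share a change with age and need not follow the same birds within an age. XIRP1 was the nearest name to ANKRD1 (0.758 on the log2 scale), and EDA2R, a receptor of the tumour necrosis factor family, came next (0.868). XIRP1 itself lay nearest to NRAP (0.668), a nebulin relative that anchors actin filaments. NRAP had 58.1, 171, 435, 296 and 102 FPKM at 42 days, 139, 485, 1070, 325 and 368 FPKM at 126 days and 461, 310, 324, 522 and 518 FPKM at 180 days, so bird 3 led at 42 and 126 days here as well. This measure grows with the spread of the gene itself, which was 1.85 for ANKRD1, 1.501 for XIRP1 and 0.485 for LDB3 as the root mean square of the centred log2 level. The names nearest to LDB3 were MYOM1 (0.195), the M-band protein myomesin, and TNNI2 (0.213), fast troponin I.

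MYO18B, with a spread of 0.598, lay nearest to DNMT3A (0.234), a DNA methyltransferase, and SLC29A1 (0.324), a nucleoside transporter. SMYD1 lay nearest to ROR1 (0.365), a receptor of the Wnt family of ligands, and DOK7 (0.403), an adaptor of the neuromuscular junction. KCNE4 (0.634), a potassium channel subunit, was one of the names near SYNC. For CSRP3 the nearest names, LMOD2 (1.21), a leiomodin of thin filament ends, and PPP1R3C (1.25), lay farther away beside a spread of 1.86, as did LMCD1 (1.32) and OSGIN1 (1.38) for ANKRD2 beside a spread of 2.11. ATF3, a stress-induced transcription factor, and ABRA, an actin-binding activator of serum response factor signalling, fall outside the rule for naming genes and were picked after their values had been seen. ATF3 ran at 126 days through 110, 347, 1199, 221 and 447 FPKM in birds 1 to 5 and ABRA through 189, 652, 1572, 388 and 1229 FPKM, the same order of birds as ANKRD1 and XIRP1. At 42 days the order differed, with bird 2 highest in ATF3 and bird 4 highest in ABRA, while bird 5 was the lowest in all 4 genes.

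The share of each entry in a gene's summed level differed between birds for some genes. What an entry stands for, a transcript or a locus, is not stated. For XIRP1 one entry held between 48.0% and 94.7% of the level, and a second held 1.72% in bird 5 at 42 days and 2.86% in bird 1 at 180 days against 20.2% to 50.7% in the other birds. The leading entry of SMYD1 held 59.6% to 82.8%, and its second entry was highest, at 40.1%, in bird 5 at 180 days. The leading entry of MYO18B held 70.9% to 97.0%, lowest in bird 1 at 180 days. The 3 entries of ANKRD2 varied most at 126 days, when the gene was near the low end of the FPKM scale: the leading entry held 100% in bird 1 and 0% in bird 5, where the third held 100% of 0.06 FPKM.

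**Figure D4:**
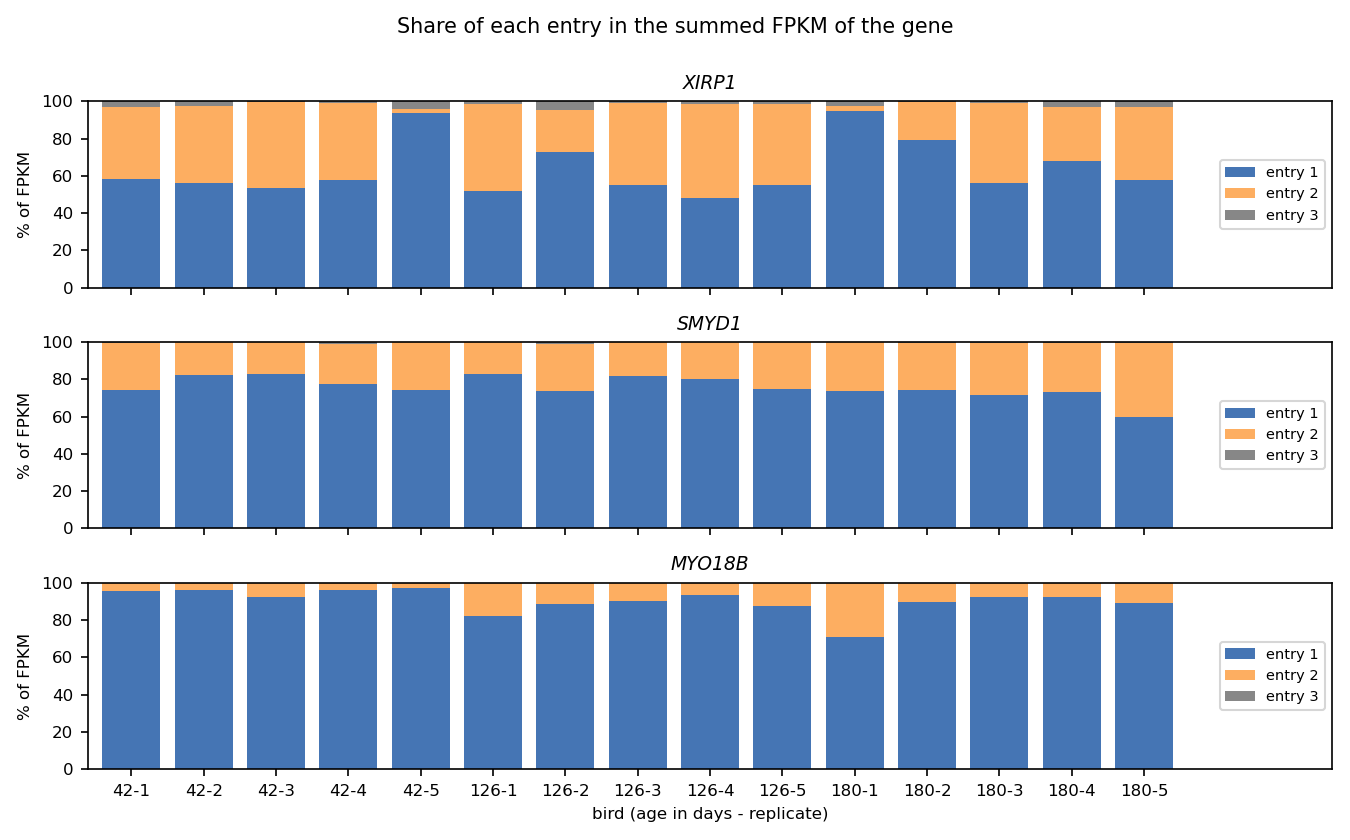
Percentage of the summed FPKM of XIRP1, SMYD1 and MYO18B that each entry of that name holds in each bird. The second XIRP1 entry is nearly lost in bird 5 at 42 days (1.72%) and bird 1 at 180 days (2.86%).

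Other genes of the Z-disc and the thin filament ends were counted from a list, beside the share of all genes called. Of 29 tested, 1 fell at 126 against 42 days (1.92% of all genes), 1 rose and 2 fell at 180 against 42 days (0.462% and 2.46% of all genes), and 0 were called at 180 against 126 days by limma, with median log2 differences of -0.23, -0.06 and 0.12. TCAP, the titin cap that holds titin ends at the Z-disc, had 19.9, 34.6, 11.5, 19.9 and 10.6 FPKM at 42 days and 63.3, 121, 108, 98.2 and 51.4 FPKM at 180 days. All birds at 180 days lay above those at 42 days, with a log2 difference of 2.25 (SE 0.34, limma adjusted p = 0.00501). FHL3, a LIM-domain protein of the Z-disc and nucleus, fell from a mean of 12.9 to 3.77 FPKM (log2 difference -1.84, SE 0.32, limma adjusted p = 0.00892). TMOD1, which caps thin filaments at the ends away from the Z-disc, fell at both later ages, by 1.63 and 2.08 on the log2 scale (limma adjusted p = 0.0356 and 0.0362). The calls of TCAP and FHL3 at 180 days stood whichever bird was left out, while those of TMOD1 stood in 1 of 10 such fits at 126 days (without bird 1 at 42 days) and 3 of 10 at 180 days (without bird 1 at 42 days or bird 1 or 3 at 180 days), with adjusted p of up to 0.0929 and 0.0903 over its alternatives.

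Of 13 genes of chaperones and myosin folding tested, 3 rose at 180 against 42 days (0.462% of all genes) and 1 rose at 180 against 126 days (0.469% of all genes), and 0 fell in limma in any comparison. The 3 were small heat shock proteins, HSPB1, HSPB7 and HSPB8, of which HSPB7 was known from earlier results when the list was made. CRYAB, another small heat shock protein, was not called, with means of 123 FPKM at 42 days and 88.6 FPKM at 180 days (log2 difference -0.53, limma adjusted p = 0.250). HSPB1 had 183, 175, 413, 222 and 177 FPKM at 42 days and 748, 640, 712, 678 and 700 FPKM at 180 days (log2 difference 1.66, SE 0.23, limma adjusted p = 0.00390). HSPB8 rose from a mean of 184 to 728 FPKM (log2 difference 2.16, limma adjusted p = 0.00839), and HSPB7 from 32.1 to 189 FPKM (2.97, limma adjusted p = 0.0107). For these 3 genes the birds of 42 and 180 days did not overlap, and each call stood whichever bird was left out. HSPB7 was also higher at 180 than at 126 days by 2.26 on the log2 scale (limma adjusted p = 0.0453), a call that stood in 3 of 10 fits with a bird left out (without bird 2 or 5 at 126 days or bird 1 at 180 days) and reached an adjusted p of 0.106. It was also lost with a pseudocount of 1, with no filter, after quantile normalization, in 1 fit of 3 ages and with the highest entry alone (limma adjusted p 0.0533 to 0.0960).

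Of 16 genes of intermediate filaments and costameres, the rib-like anchors between Z-disc and membrane, 2 fell at 126 against 42 days (1.92% of all genes) and 1 rose at 180 against 126 days (0.469% of all genes). PARVB, an integrin-linked actin-binding protein, fell from a mean of 22.3 to 6.39 FPKM (log2 difference -1.76, limma adjusted p = 0.0106), and TLN2, a talin, from 24.6 to 11.4 FPKM (-1.09, limma adjusted p = 0.0297). At 180 days PARVB had a mean of 18.5 FPKM and was not called against 42 days (-0.32, limma adjusted p = 0.687). DES, the desmin filament that syncoilin binds, rose from a mean of 821 FPKM at 126 days to 2048 FPKM at 180 days (1.38, limma adjusted p = 0.0286). Its mean at 42 days was 1509 FPKM, and all birds at 126 days lay below those at 42 days. That difference was not called (-0.86, limma adjusted p = 0.160), and neither was 180 against 42 days, where the birds overlapped (0.52, limma adjusted p = 0.318). All birds of DES at 180 days lay above those at 126 days. TLN2 kept its call in 4 of 10 fits with a bird left out (without bird 1 or 5 at 42 days or bird 1 or 4 at 126 days) and DES in 4 of 10 (without bird 1, 3 or 5 at 126 days or bird 1 at 180 days), with adjusted p of up to 0.1003 and 0.796 over their alternatives.

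In the M-band list, 1 of 6 tested genes fell at 126 against 42 days (1.92% of all genes) and 1 of 6 at 180 against 42 days (2.46%). The first was OBSL1, a titin-binding obscurin relative, with a log2 difference of -1.58 (limma adjusted p = 0.0218), which was lost without bird 2 at 42 days (adjusted p 0.0592) or bird 3 at 126 days (0.0589). The second was MYBPC3, the cardiac myosin-binding protein C, which was low at 42 days (0.87 to 3.09 FPKM) and between 0.05 and 0.09 FPKM at 180 days (log2 difference -2.91, limma adjusted p = 0.00542). It passed the filter on low values only through the birds at 42 days, was not tested without bird 4 at 42 days or with a mean of at least 1 FPKM, and had a log2 difference of -1.06 with a pseudocount of 1.

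In the list of stretch, serum response factor and YAP genes, 2 of 20 fell at 126 against 42 days (1.92% of all genes), 3 fell at 180 against 42 days (2.46%) and 1 rose at 180 against 126 days (0.469%), with median log2 differences of -0.17, -0.16 and -0.23. TEAD1 and TEAD4, the DNA-binding partners of YAP, fell by 1.12 and 1.56 at 126 days (limma adjusted p = 0.0195 and 0.0154). WWTR1, the YAP relative TAZ, fell from a mean of 22.9 FPKM at 42 days to 8.96 FPKM at 180 days (-1.29, limma adjusted p = 0.00937). ACTC1, the cardiac actin of growing muscle, fell by 3.09 (limma adjusted p = 0.0212) and GADD45A, a stress-response gene, fell by 1.13 (limma adjusted p = 0.0217). TRIM54, a ubiquitin ligase at the Z-disc and M-band, rose from a mean of 53.9 to 109 FPKM between 126 and 180 days (1.05, limma adjusted p = 0.0382). Its mean at 42 days was 82.9 FPKM. Against 42 days it was not called at 126 days (-0.66, limma adjusted p = 0.128) or 180 days (0.39, limma adjusted p = 0.238).

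The calls of TEAD4 and WWTR1 stood whichever bird was left out. TEAD1 lost its call without bird 2 at 42 days or bird 2 or 3 at 126 days (adjusted p 0.0534 to 0.0565). ACTC1 lost it without bird 1, 2 or 3 at 42 days or bird 2, 3 or 4 at 180 days (adjusted p 0.0520 to 0.0571) and with the replicate block (0.0572), and GADD45A without bird 4 or 5 at 42 days or bird 2 or 4 at 180 days. TRIM54 kept it only without bird 5 at 126 days or bird 1 at 180 days, with adjusted p of up to 0.114.

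**Figure D5:**
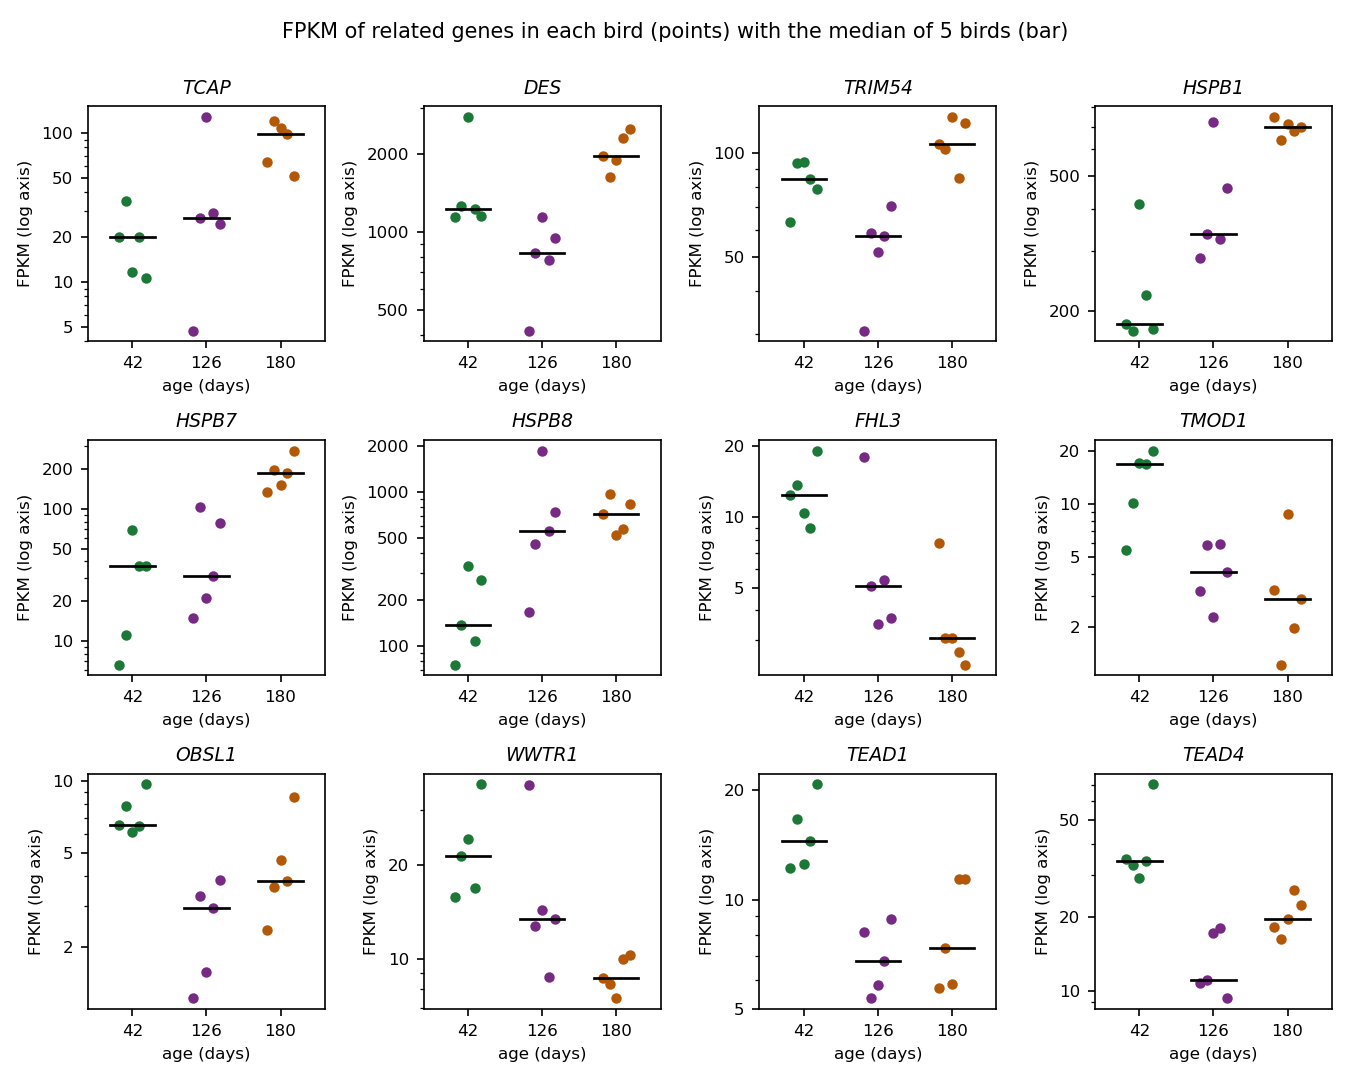
FPKM (log axis, each panel with its own range) of 12 related genes in each bird (points, replicates 1 to 5 from left to right) by age in days, with bars at the median of 5 birds. TCAP, HSPB1, HSPB7 and HSPB8 have all birds at 180 days above all birds at 42 days, and FHL3 and WWTR1 have all birds at 180 days below them.

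Paralogs of the 8 genes were called once: 1 of 8 tested fell at 180 against 42 days (2.46% of all genes). This was CSRP2, a LIM protein of smooth muscle and fibroblasts, which fell from a mean of 4.19 to 1.304 FPKM (log2 difference -1.56, limma adjusted p = 0.0150). CSRP1 and SMYD2 had limma adjusted p of at least 0.338 and 0.146. PDLIM5, a relative of LDB3, had log2 differences between -0.06 and -0.02, and SYNM, an intermediate filament relative of SYNC, was not called either. Of the fast-fibre genes, limma called 0 of 5 tested at 126 against 42 days (2.46% of all genes). It called 0 of 4 at 180 against 42 days (2.93%), where PVALB was below the filter, and 0 of 5 at 180 against 126 days (0.921%).

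Fibroblast markers were lower at 180 than at 42 days. Of 6 fibroblast genes tested, 0 were at 0 in all birds and 4 fell at 180 against 42 days (2.46% of all genes). DCN and PDGFRA were not called (limma adjusted p = 0.0825 and 0.0774). The summed level of the 6 ran from 246 to 816 FPKM at 42 days, 194 to 1272 FPKM at 126 days and 39.4 to 219 FPKM at 180 days. Bird 1 at 126 days and bird 1 at 180 days had the highest fibroblast sums of their ages and also the highest FHL3, at 17.9 and 7.73 FPKM. Bird 1 at 126 days was the highest of its age in WWTR1 (36.1 FPKM), ACTC1 (18.1 FPKM) and CSRP2 (3.54 FPKM) as well. At 42 days bird 5 had the lowest fibroblast sum. It had the lowest ACTC1 (14.6 FPKM) and CSRP2 (2.29 FPKM) of that age, but the highest FHL3 (19.1 FPKM) and WWTR1 (36.2 FPKM). At 180 days bird 5 had the lowest sum and the highest ACTC1 (22.4 FPKM), CSRP2 (1.94 FPKM) and WWTR1 (10.3 FPKM). The summed level of the 5 T cell genes found ran from 2.64 to 6.56 FPKM at 42 days, 8.36 to 19.9 FPKM at 126 days and 4.10 to 76.1 FPKM at 180 days. Of these 5, limma called 3 higher at 126 against 42 days (0.549% of all genes), CD3E, CD8A and IL7R. CD3D and CD4 were not called there (log2 differences 1.38 and -0.73, limma adjusted p = 0.0542 and 0.300), and 0 were called in the other comparisons. CD8A and IL7R passed the filter on low values only through the birds at 126 days, with means of 0.48 and 0.232 FPKM at 42 days. CD3E and IL7R had already been named by the paper for 42 and 126 days, so their calls are not independent of it. The part of either cell type in the changes of FHL3, WWTR1, CSRP2 and ACTC1 was not tested. Without bird 1 at 180 days, the calls of TCAP, FHL3, WWTR1, HSPB1, HSPB7 and HSPB8 at 180 against 42 days stood.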

How the data were processed

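The 15 breast muscle libraries, 5 per age, were grouped by the labels. The authors trimmed and mapped the reads (HISAT2 2.2.1 and StringTie 2.1.6 per the labels) and deposited FPKM with 2 decimals. The genome build is not given in the sources used here. The authors tested counts with DESeq2, which FPKM do not allow, and low FPKM showed no steps of whole reads, so depth is unknown.

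Entries were summed by gene name. For each pair of ages limma 3.58.1 (R 4.3.3, trend, two-sided, Benjamini-Hochberg) was fitted to log2(FPKM + 0.1) of 10 birds, and genes whose mean was under 0.5 FPKM were left out. Log2 differences are on this scale, which understates changes of low genes, and ratios given as fold or times are of FPKM. The labels tie each library to 1 chicken, while the study's texts name more hens per age than the 5 analysed here. Correlations were permuted 100000 times within ages (Python 3.11.15, numpy 2.4.6), in 28 pairs, where the smallest p is 1e-05.

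Members, lists and tests were chosen with earlier results of these data known, HSPB7 among them. The paper also names CSRP3, CD3E and IL7R among its genes that differed between ages. Named were the members, up to 4 called genes per list and comparison, paralogs, and 2 nearest names per member, of which some are not reported here. Related lists covered the Z-disc, M-band, intermediate filaments and costameres, stretch response, chaperones, paralogs and fast fibres. Alternatives were a pseudocount of 1, no filter or a mean of at least 1 FPKM, rescaling, quantile normalization, 1 fit of 3 ages, a replicate block, the highest entry per name, and each bird left out. Those for the correlation of ANKRD1 and XIRP1 were added after seeing the data. The fits were tested on simulated data. The labels give no date or batch beyond the age.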

Additional observations from a re-analysis of the deposited data

Results flagged for a closer look

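In 13 of 78 groups of 5 birds, 1 bird lay apart from the others by more than 0.71 of the group's range. Chance gives such a gap in about 1 of 20 groups only where values are normally distributed and groups are independent. Here the gap was taken on FPKM without a log, and the same birds recur from gene to gene. The 13 groups can therefore not be set against that rate, and they are listed as a description. Among the 8 genes such a bird was seen for SMYD1 at 42 days. Bird 4 had 309.75 FPKM against at most 153.52 FPKM in the others. At 42 days the others were DES (2777.42 FPKM) and HSPB1 (413.36 FPKM) in bird 3, MYBPC3 in bird 4 (3.09 FPKM), and GADD45A (51.87 FPKM) and TEAD4 (70.23 FPKM) in bird 5. At 126 days they were FHL3 (17.93 FPKM) and WWTR1 (36.09 FPKM) in bird 1 and TCAP in bird 3 (128.29 FPKM). At 180 days they were FHL3 in bird 1 (7.73 FPKM), TMOD1 in bird 3 (8.8 FPKM), and ACTC1 (22.4 FPKM) and CSRP2 (1.94 FPKM) in bird 5. In each of these the bird was the highest of its age.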

How the results depend on the processing

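The log2 differences of the 8 genes kept their direction under every alternative other than leaving out a bird. With a bird left out, LDB3 at 126 against 42 days ran from -0.0050 (without bird 5 at 42 days) to 0.46, and XIRP1 at 180 against 126 days, at most 0.46, turned to -0.56 and -0.15 (without bird 1 or 4 at 126 days) and to -0.21, -0.0033 and -0.14 (without bird 1, 2 or 5 at 180 days). SYNC at 180 against 126 days, at 0.03, ran from -0.23 to 0.32 in these fits. ANKRD2 moved to -1.47 at 126 against 42 days with a pseudocount of 1.

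The 283 calls at 126 against 42 days became 186 with a pseudocount of 1, 169 with no filter and 51 with only the highest entry of each name, the 342 at 180 against 42 days became 172 with the highest entry, and the 106 at 180 against 126 days became 53 with no filter and 20 with the highest entry. Leaving out 1 bird gave 77 (bird 2 at 42 days) to 375 calls, 176 (bird 2 at 42 days) to 770 (bird 1 at 180 days), and 15 (bird 2 at 180 days) to 378 (bird 1 at 180 days). With the replicate number as a block the counts were 264, 307 and 270, and CSRP3 at 180 against 126 days was called (limma adjusted p = 0.00894). The numbers were not taken to pair the birds, since the study states no pairing. Same-numbered birds correlated between -0.128 and 0.320, and 3, 1 and 6 of 10 birds correlated best with their own number. The value of 0.320 and the 6 of 10 belong to 180 against 126 days. Whether the numbers stand for something the birds shared was not tested, and the CSRP3 call depends on that choice.

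With the highest entry alone, PARVB, TLN2, TMOD1, OBSL1, TEAD1, TEAD4, ACTC1, CSRP2, DES, TRIM54 and HSPB7 at 180 against 126 days lost their calls, while TCAP, FHL3, WWTR1, GADD45A, HSPB1, HSPB7 and HSPB8 at 180 against 42 days kept them. MYBPC3 kept its call as well, with the limit that it passed the main filter only through the birds at 42 days. The cause of the losses was not tested. After quantile normalization CSRP2, TMOD1 (at both ages), HSPB7 at 180 against 126 days and TRIM54 also lost their calls (limma adjusted p 0.0520 to 0.0634), as did TLN2 by its size (log2 difference -0.996). With no filter TMOD1, TLN2, DES, TRIM54 and HSPB7 at 180 against 126 days lost theirs (0.0534 to 0.0898), in 1 fit of 3 ages TMOD1 at 126 days and HSPB7 at 180 against 126 days, and with the block ACTC1 (0.0572). Depth is unknown, so the counting error of low genes such as ANKRD2 at 126 days cannot be given.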
